A study of Mus musculus with 11 samples.

Results

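The genes described here are 9 genes that handle cholesterol at the cell surface and inside the cell: Abca1 and Abcg1, which export it, the LXR factors Nr1h2 and Nr1h3, the lipoprotein receptors Lrp1 and Scarb1, the apolipoprotein gene Apoe, the esterifying enzyme Soat1 and the ubiquitin ligase Mylip. They were taken as a list of sterol transporters, lipoprotein receptors and LXR factors, 9 of 34547 genes with a sum of deposited counts, and all 9 passed the filter on low counts that kept 21200 genes. Abca1 was selected on its measured fall in nephritis. Its levels in nephritis are therefore given as a description with no test, and counts of called genes in nephritis cover the other 8.

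The study sorted podocytes, the epithelial cells that cover the glomerular capillaries, from mice labelled C57BL/6 (C57BL/6N in the study's methods) and sequenced their RNA in 11 libraries. All sorted mice carried the podocin-driven iCre and mTomato alleles, so Cre was active in podocytes of both genotypes. PodTOM mice, labelled WT, had intact Myd88 alleles (PodCre/wt x MyD88wt/wt), and MyD88pko mice had both Myd88 alleles floxed (PodCre/wt x MyD88flox/flox). Nephrotoxic nephritis (NTN) was induced in male mice aged 8 to 16 weeks by injecting 9 µl of sheep serum against the glomerular basement membrane per g of body weight on 2 consecutive days, and podocytes were taken on day 5. There were 3 untreated PodTOM, 3 PodTOM NTN, 2 untreated MyD88pko and 3 MyD88pko NTN libraries. The untreated mice are labelled healthy, and the age of those sequenced is not given in the sources used here. A general label describes WT mice as littermates without Cre, while the description of the sort names the Cre-carrying controls used above. The number of mice behind a library is also not given, so p-values measure the spread between libraries. Sample names carry 1 prefix in all PodTOM and another in all MyD88pko libraries, so genotype and whatever the prefix stands for cannot be told apart.

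Libraries held 14563271 to 32764201 estimated counts, and NTN libraries were the deeper ones (20080140 or more against 19483013 or fewer). Levels are given in CPM, counts relative to library size after TMM scaling, unless another scale is named. Library sizes and factors were set separately for genes, single transcripts and sums of coding transcripts, so CPM do not compare between these. The signals of vomeronasal and satellite-like genes are in CPM without TMM scaling. Podocyte markers were high in every library: the sum over 20 markers was 55371 to 69494 CPM in untreated libraries and 41366 to 58493 CPM in NTN libraries. Myd88 stood at 6.49 to 14.1 CPM in PodTOM and at 0.20 to 0.98 CPM in MyD88pko libraries. Summed signal over 549 vomeronasal receptor genes, which podocytes are not known to use, ranged from 60.7 to 91.2 CPM without nephritis and from 130.5 to 474.7 CPM with it. Satellite-like predicted genes went from 2 to 6 CPM to 19443 to 82498 CPM. These signals moved with NTN in every library. Alternative fits left out the 3 libraries with most vomeronasal signal (PodTOM NTN 1, MyD88pko NTN 1 and 2), took that signal as a covariate, or left out the receptor and satellite-like genes. The part of these signals in the results below was not tested further. Without the 3 libraries, MyD88pko NTN 3 is the only library left of its group. The covariate followed NTN, with no overlap between untreated and NTN libraries. Whether results lost in these fits go with the signal or with fewer libraries and such a covariate was not tested.

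Cells shed cholesterol through ATP-binding cassette transporters. ABCA1 loads cholesterol and phospholipid onto lipid-poor apolipoproteins, and ABCG1 passes sterol on to formed high-density lipoprotein. Both genes are classical targets of the liver X receptors LXRα (Nr1h3) and LXRβ (Nr1h2), nuclear receptors that bind oxysterols and act with RXR. MYLIP, also called IDOL, is a ubiquitin ligase and another LXR target, through which lipoprotein uptake falls when efflux rises. The opposite program is run by SREBP2 (Srebf2), which is activated when membrane sterol is low. In podocytes, ABCA1 and cholesterol efflux are known from studies of diabetic and genetic glomerular disease, in which lipid gathers in the cells.

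Abca1 fell to about the same low level in the NTN libraries of both genotypes. In untreated PodTOM libraries Abca1 stood at 80.0, 75.7 and 74.4 CPM, and in untreated MyD88pko libraries at 77.3 and 121.5 CPM. In NTN libraries the level was 19.3, 14.0 and 15.7 CPM in PodTOM and 19.5, 18.4 and 13.4 CPM in MyD88pko. Each of the 6 NTN libraries thus lay far below each of the 5 untreated ones, as a description of a gene selected on its fall. Within PodTOM the 2 conditions did not overlap for 42.8% of all genes tested. The log2 fold change was -2.23 in PodTOM and -2.54 in MyD88pko, or 4.70-fold and 5.82-fold lower. No interval is printed with these values, because the gene was selected on this fall. The plot of log2 fold changes for the 9 genes does draw bars for Abca1 in NTN, and these are no test of the fall. Over the alternatives run, the fitted value ranged from -2.91 to -2.17 in PodTOM and from -3.20 to -2.18 in MyD88pko. For a selected gene this range is a description only. Podocyte markers fell in the same libraries: 12 of 20 fell and 1 rose in PodTOM NTN (median log2 fold change -0.58), and 8 fell and 2 rose in MyD88pko NTN (median -0.40). Of 15 endothelial markers, 9 rose in PodTOM NTN and 2 in MyD88pko NTN. Of all genes tested, 15.9% rose and 9.93% fell in PodTOM NTN, and 11.3% and 8.22% in MyD88pko NTN. The part of these marker shifts in the falls of Abca1 and Mylip was not tested. In these bulk samples, fewer cells that express a gene and less RNA per cell cannot be told apart. Nearly all Abca1 counts, at least 98.8% in each group, came from the full-length coding transcript Abca1-201 with its 50 exons, so the fall was that of the coding RNA.

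Abca1 lies at 53030787 to 53159895 on the minus strand of mouse chromosome 4 (GRCm38). The 250 bases before its RefSeq start are printed because the gene is the member that fell most in both genotypes and because a known LXR element of Abca1 lies there. Those of Mylip, at 45389742 to 45412022 on the plus strand of chromosome 13, follow as the other member that fell in both. Capitals mark a CACGTG E-box, 147 to 142 bases before the start, and the closest stretch to a DR4 element, 67 to 52 bases before it.
Abca1, chr4:53159896-53160145, minus strand, GRCm38.p6: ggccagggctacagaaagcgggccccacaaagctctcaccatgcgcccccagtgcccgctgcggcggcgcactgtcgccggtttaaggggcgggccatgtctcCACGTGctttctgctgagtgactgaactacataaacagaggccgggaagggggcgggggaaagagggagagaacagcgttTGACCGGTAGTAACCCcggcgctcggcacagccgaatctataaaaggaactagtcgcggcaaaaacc
Mylip, chr13:45389492-45389741, plus strand, GRCm38.p6: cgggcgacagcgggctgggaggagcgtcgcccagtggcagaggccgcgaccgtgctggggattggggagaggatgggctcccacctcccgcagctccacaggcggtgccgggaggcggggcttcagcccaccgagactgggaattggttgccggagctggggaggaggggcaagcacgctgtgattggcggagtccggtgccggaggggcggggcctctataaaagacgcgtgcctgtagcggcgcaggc

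DR4 is a direct repeat of the nuclear receptor motif, AGGTCA and again AGGTCA with 4 free bases between them, and was searched on both strands in the same window of 32851 RefSeq promoters; CACGTG reads the same on both strands. The Abca1 stretch reads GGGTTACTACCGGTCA on the strand opposite to the gene and differs from DR4 at 3 of its 12 fixed letters. With at most 2 differing letters, 843 promoters (2.57%) held a DR4 and none of the 7 members with a promoter in the table did (Abca1, Apoe, Lrp1, Mylip, Nr1h2, Nr1h3 and Soat1). With 3 letters, a setting chosen after the first search, 18.51% of promoters held one and Abca1 was the only member. The E-box was in 6.02% of promoters and again only in Abca1 among the members. The Mylip window held neither motif. These matches describe the letters in the window and not the binding of a factor.

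**Figure D1:**
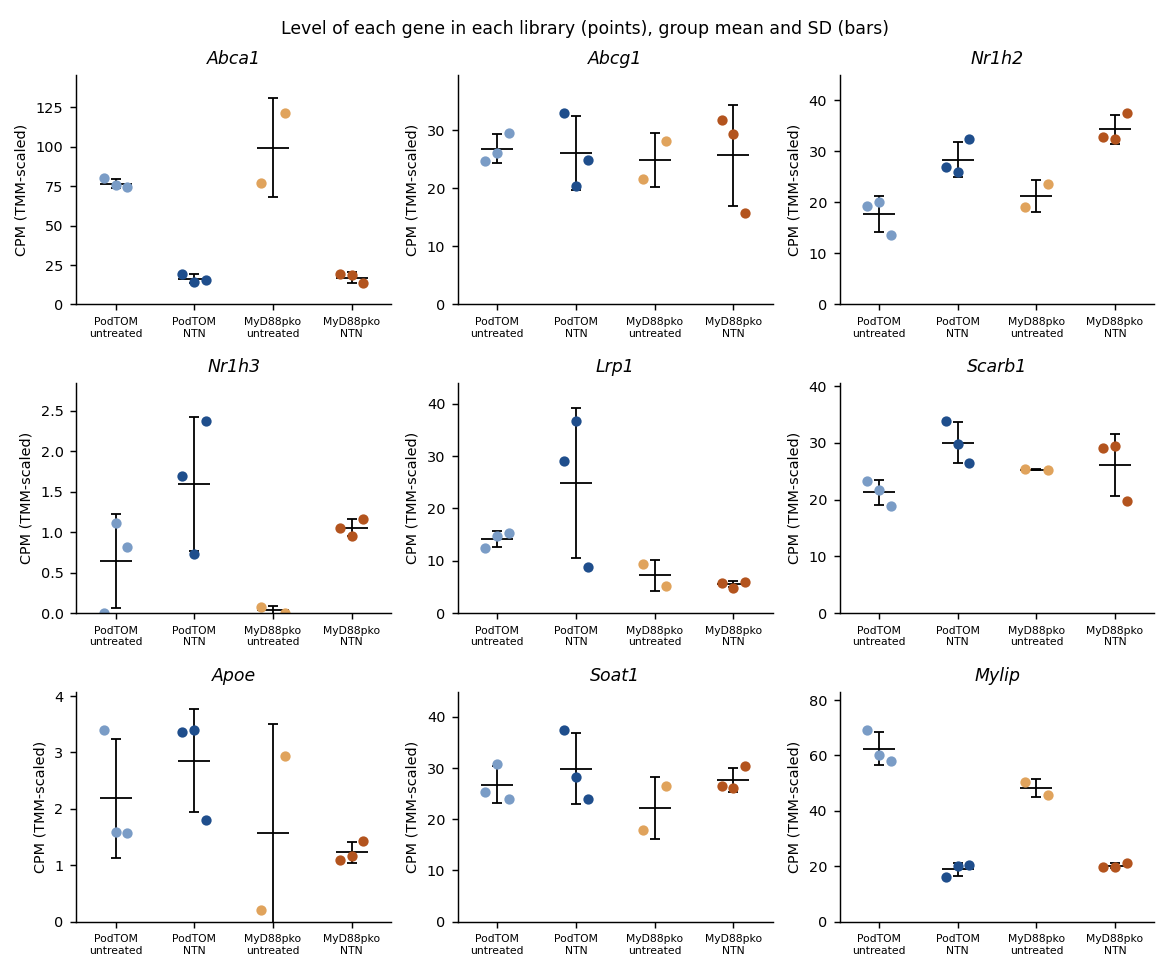
Level of the 9 genes in CPM after TMM scaling (linear axes from 0) in each of the 11 libraries (points), with the group mean and SD as bars. Abca1 and Mylip sit lower in all 6 NTN libraries than in all 5 untreated ones, Nr1h2 sits higher, and Lrp1 is high in 2 of the 3 PodTOM NTN libraries, at 29.0 and 36.7 CPM. Within PodTOM the 2 conditions did not overlap for 42.8% of all genes tested.

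The question put to the other 8 genes was whether they moved in NTN beyond the spread between libraries, in each genotype. In PodTOM, 1 of the 8 rose and 1 fell at an adjusted p under 0.05 (edgeR quasi-likelihood test, Benjamini-Hochberg over 21200 genes), against 25.9% of all genes tested. In MyD88pko, 2 rose and 1 fell, against 19.5% of all genes. Over all genes 3381 rose and 2106 fell in PodTOM, but 1355 rose and 3355 fell on the log2(TPM + 1) scale described with Nr1h2 below, and in MyD88pko 2390 and 1743 became 1451 and 2009. With 8 genes, 2 or 3 calls do not set the members apart from this background. The median log2 fold change of the 8 was 0.45 in PodTOM and 0.04 in MyD88pko, beside 0.19 and 0.16 over all genes. The genes that passed were Mylip and Nr1h2 in both genotypes and Nr1h3 in MyD88pko.

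Mylip fell in both genotypes, together with Abca1. Its level was 69.2, 60.2 and 58.1 CPM in untreated PodTOM and 50.5 and 45.9 CPM in untreated MyD88pko libraries. In NTN it was 16.1, 20.1 and 20.3 CPM in PodTOM and 19.8, 19.6 and 21.3 CPM in MyD88pko. The closest libraries of the 2 conditions were at 45.9 and 21.3 CPM. In PodTOM, 42.8% of all genes tested likewise had no overlap between conditions. The log2 fold change was -1.73 ± 0.17 (SE; edgeR adjusted p = 5.80e-06) in PodTOM and -1.25 ± 0.18 (adjusted p = 2.63e-04) in MyD88pko. Mylip kept its direction and its call in both genotypes under all 21 alternatives run, with log2 fold changes from -1.81 to -1.51 and from -1.45 to -1.03. The fall was 0.48 smaller in MyD88pko on the log2 scale (95% interval -0.04 to 1.00), and this difference did not pass the test (edgeR adjusted p = 0.898).

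Of 72 annotated transcripts of the members, 31 were tested. Leaving out those of Abca1, 3 of 29 passed in PodTOM NTN, where 5.43% of all transcripts did, and 1 in MyD88pko NTN, where 4.3% did. None passed between genotypes in NTN, against 0.00172% of all, in untreated podocytes or in the difference between responses (edgeR). Mylip has 2 annotated transcripts, both coding. Mylip-201 is the longer one and is unique in 1255 of its 3013 stretches of 31 bases, while Mylip-202 is unique in only 166 of 1924, so the split of reads between them rests on few positions. Mylip-201 fell in PodTOM from 58.5, 38.9 and 44.3 to 14.0, 9.69 and 13.3 CPM, a log2 fold change of -1.94 (edgeR over 58207 transcripts, adjusted p = 0.00161). In MyD88pko it went from 33.8 and 25.7 to 21.5, 19.4 and 20.8 CPM (log2 -0.53, adjusted p = 0.241). Mylip-202 passed in the other genotype. It fell in MyD88pko from 13.5 and 17.3 to 0.68, 2.49 and 1.42 CPM (log2 -3.33, adjusted p = 0.0188) and in PodTOM went from 7.76, 17.9 and 10.95 to 2.90, 10.8 and 6.45 CPM (log2 -0.86, adjusted p = 0.40). The difference between the genotypes' responses did not pass for either transcript (edgeR adjusted p = 0.493 and 0.721). The call of Mylip-201 in PodTOM held in 14 of 15 alternatives (edgeR adjusted p up to 0.105) and that of Mylip-202 in MyD88pko in 9 of 15 (up to 0.394). The latter was lost without either untreated MyD88pko library and without MyD88pko NTN 1 or 3 (0.0674 and 0.0548). It was also lost without the 3 libraries with most vomeronasal signal and with that signal as a covariate.

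Nr1h2, the LXR that most tissues express, rose modestly. It stood at 19.3, 20.0 and 13.6 CPM in untreated PodTOM and 26.9, 25.8 and 32.3 CPM in PodTOM NTN libraries. In MyD88pko it went from 19.1 and 23.5 to 32.9, 32.4 and 37.5 CPM. All 6 NTN libraries lay above all 5 untreated ones, with the closest at 25.8 and 23.5 CPM. Within PodTOM the 2 conditions did not overlap for 42.8% of all genes tested, and the share over all 11 libraries was not computed. The log2 fold change was 0.68 ± 0.20 (SE; edgeR adjusted p = 0.0203) in PodTOM and 0.69 ± 0.23 (adjusted p = 0.0419) in MyD88pko.

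The Nr1h2 rise depended on the scale. On log2(TPM + 1), where TPM divides counts by transcript length before scaling, the log2 difference was 0.02 (limma adjusted p = 0.961) in PodTOM and 0.11 (0.733) in MyD88pko, and with counts rebuilt from TPM it was 0.28 (edgeR adjusted p = 0.401) and 0.19 (0.623). The level per length was 43.3 ± 6.0 TPM (SD, n = 3) in untreated and 44.4 ± 11 TPM (n = 3) in NTN PodTOM libraries. The CPM and the level per length thus gave different answers. Among its 18 transcripts, Nr1h2-216 went from 8.94, 1.5 and 3.35 to 14.6, 17.9 and 19.9 CPM in PodTOM without passing the test (log2 1.93, edgeR adjusted p = 0.0664), and only 28 of its 1420 stretches of 31 bases are its own. Leaving out PodTOM untreated 3 or PodTOM NTN 3 ended the call in PodTOM (adjusted p = 0.0888 and 0.0611), as did leaving out the 3 libraries with most vomeronasal signal (0.0684). In MyD88pko, 12 of 21 alternatives ended it, among them leaving out either untreated MyD88pko library (adjusted p = 0.274 and 0.119).

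Nr1h3, the LXR of macrophages, liver and fat, was near the limit of detection. It had 0, 21 and 13 counts in untreated PodTOM and 1 and 0 in untreated MyD88pko libraries. NTN libraries had 36, 19 and 50 counts in PodTOM and 26, 22 and 35 in MyD88pko, or 0.73 to 2.37 CPM. Nr1h3 passed the test in MyD88pko (log2 4.77 ± 1.58, SE; edgeR adjusted p = 0.0434) and not in PodTOM (1.28 ± 0.99, adjusted p = 0.354), and the difference between the responses did not pass (adjusted p = 0.898). Because the untreated MyD88pko group held 1 count in all, the pooled ratio is given as well: 83 counts against 1 gave a depth-corrected ratio of 34.8 with a counting interval of 6.07 to 1389, which covers counting error only. In PodTOM, 105 counts against 34 gave 2.27 (1.53 to 3.44). These intervals treat reads as independent and leave out the spread between libraries, over which the PodTOM change did not pass. Of 21 alternatives, 8 kept the MyD88pko call, and adjusted p ranged from 0.012 to 0.251. Coding transcripts held 41.0% of Nr1h3 counts in MyD88pko NTN libraries and retained-intron transcripts 56.1%. Nr1h3 also shares 34 exon bases with Gm13783 on the same strand.

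Abcg1, the second efflux transporter, did not move as a gene, yet its transcripts went opposite ways. The gene sum was 24.7, 26.2 and 29.5 CPM in untreated and 33.0, 20.5 and 24.9 CPM in NTN PodTOM libraries, and 21.7 and 28.2 against 31.9, 29.4 and 15.8 CPM in MyD88pko. The libraries of the 2 conditions overlapped in both genotypes. The log2 fold change was -0.04 (95% interval -0.57 to 0.49; edgeR adjusted p = 0.931) in PodTOM and 0.04 (-0.56 to 0.64; adjusted p = 0.935) in MyD88pko.

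Abcg1 has 1 coding transcript of 15 exons, Abcg1-201, and 1 retained-intron transcript, Abcg1-202, of 1085 bases, 456 of which lie outside the exons of the coding one. Abcg1-201 fell in PodTOM NTN from 17.3, 19.3 and 23.3 to 9.67, 5.67 and 7.75 CPM (log2 -1.38, edgeR adjusted p = 0.0224 over 58207 transcripts). Abcg1-202 rose from 6.36, 5.40 and 4.79 to 24.9, 15.3 and 16.5 CPM (log2 1.78, adjusted p = 0.0316). The share of Abcg1 counts on the coding transcript was 78.7% in untreated and 28.9% in NTN PodTOM libraries, pooled by group. In MyD88pko that share was 71.8% and 35.5%. There Abcg1-201 went from 13.4 and 20.3 to 11.7, 9.16 and 8.34 CPM (log2 -0.79, adjusted p = 0.183) and Abcg1-202 from 6.94 and 6.25 to 24.0, 23.6 and 8.14 CPM (log2 1.49, adjusted p = 0.101), so neither passed.

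When only coding transcripts were summed per gene, Abcg1 fell in both genotypes, by 1.46 on the log2 scale in PodTOM (edgeR adjusted p = 0.00192) and by 1.07 in MyD88pko (adjusted p = 0.0221), where 24.4% and 18.2% of all genes passed and 10.5% and 8.44% fell. With counts rebuilt from TPM over both transcripts it rose instead in PodTOM (log2 0.85, adjusted p = 0.0432). With the vomeronasal covariate the rise of Abcg1-202 in PodTOM shrank to a log2 value of 0.30 (edgeR adjusted p = 0.913), while Abcg1-201 was at -1.87 (adjusted p = 0.214). Both transcript calls in PodTOM were lost without the 3 libraries with most vomeronasal signal (edgeR adjusted p = 0.109 for Abcg1-201 and 0.0899 for Abcg1-202). Leaving out PodTOM untreated 2 or 3 or PodTOM NTN 2 also ended both, with adjusted p from 0.0548 to 0.0918, PodTOM NTN 3 ended that of Abcg1-201 (0.0603), and PodTOM untreated 1 or NTN 1 ended that of Abcg1-202 (0.0587 and 0.114). MyD88pko NTN 3 had the least vomeronasal signal among NTN libraries, at 130.5 CPM, and 50.6% of its Abcg1 counts were coding. In the other 5 NTN libraries, at 209.5 to 474.7 CPM, the coding share was 27.1% to 32.8%. It was 65.9% to 83.0% in untreated libraries. This contrast within NTN rests on 1 library, and the part of the vomeronasal signal in it was not tested.

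**Figure D2:**
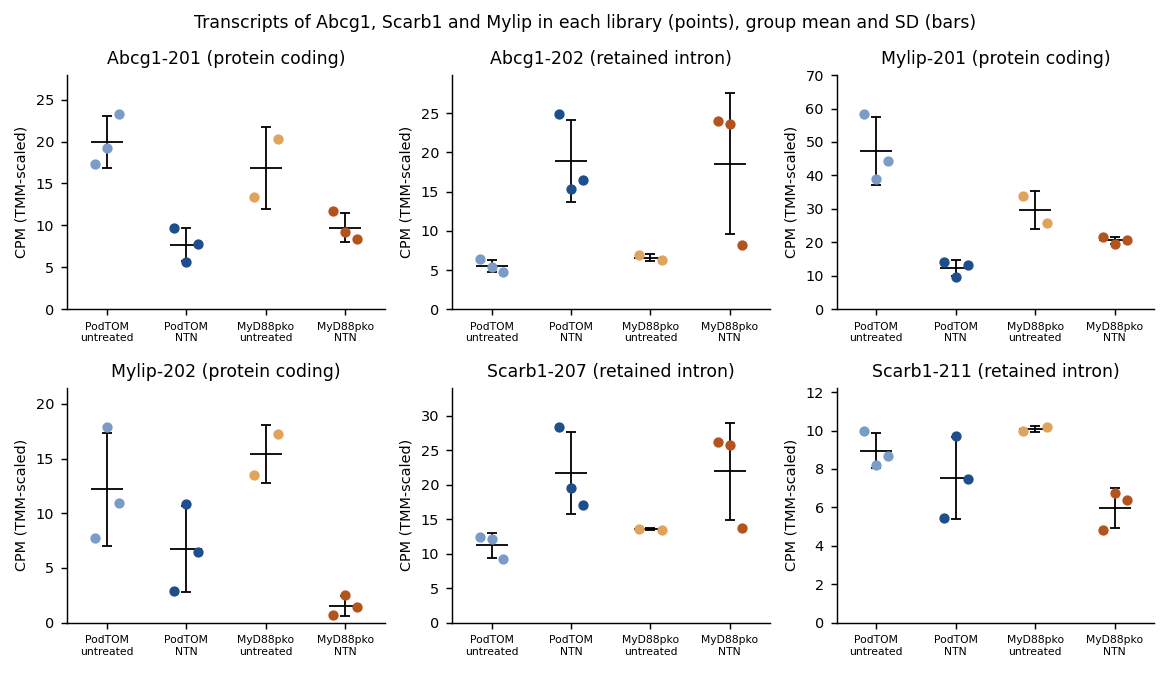
Transcripts of Abcg1, Scarb1 and Mylip in CPM after TMM scaling (linear axes from 0) in each library (points), with the group mean and SD as bars. Abcg1-201 lies lower in NTN and Abcg1-202 higher, at 15.3 to 24.9 CPM in PodTOM NTN libraries, while the 2 Scarb1 transcripts shown carry nearly all Scarb1 signal.

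Scarb1 encodes SR-BI, the receptor that takes up cholesteryl ester from high-density lipoprotein. Its gene sum was 23.3, 21.7 and 18.9 CPM in untreated and 33.8, 29.9 and 26.5 CPM in NTN PodTOM libraries, which did not overlap, as was the case for 42.8% of all genes tested in this comparison. The change did not pass the test (log2 0.50 ± 0.20, SE; edgeR adjusted p = 0.0727). In MyD88pko it was 25.4 and 25.2 against 29.1, 29.5 and 19.8 CPM (log2 0.05, adjusted p = 0.902). Almost none of this signal came from coding RNA. Coding transcripts held 0.1% of Scarb1 counts in untreated and 2.5% to 2.6% in NTN libraries. Scarb1-201, a coding transcript, was at 0 in all 5 untreated libraries, and coding Scarb1 as a whole reached at most 1.57 CPM.

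The Scarb1 counts sat on Scarb1-207 and Scarb1-211, both annotated as retained intron. Scarb1-211 is a single block at 125325261 to 125327719 on chromosome 5 (minus strand, GRCm38), and all of its 2459 bases lie outside the exons of coding Scarb1 transcripts. Scarb1-207, at 125282950 to 125286677, has 2894 of 3093 bases outside them. Scarb1-207 went from 12.3, 12.1 and 9.15 to 28.4, 19.6 and 17.1 CPM in PodTOM (log2 0.95, edgeR adjusted p = 0.0962) and Scarb1-211 from 9.98, 8.20 and 8.67 to 5.45, 9.73 and 7.47 CPM (log2 -0.24, adjusted p = 0.687). Neither passed in MyD88pko (adjusted p = 0.268 and 0.221). The gene sum of Scarb1 is therefore a sum of intronic signal in these libraries, and retained-intron transcripts took 8.69% to 11.96% of all counts in a library.

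Lrp1 encodes a large endocytic receptor that binds apolipoprotein E, proteases and many other ligands. It stood at 12.4, 14.7 and 15.3 CPM in untreated PodTOM and at 29.0, 36.7 and 8.86 CPM in PodTOM NTN libraries. In MyD88pko it was 9.30 and 5.14 CPM untreated and 5.78, 4.82 and 5.90 CPM in NTN. PodTOM NTN 1 and 2 stood above all other libraries and PodTOM NTN 3 below its untreated group. Lrp1 did not pass in NTN against untreated in PodTOM (log2 0.81 ± 0.38, SE; edgeR adjusted p = 0.121) or in MyD88pko (-0.39 ± 0.44, adjusted p = 0.542). Without PodTOM NTN 3 the PodTOM value was 1.22 (adjusted p = 0.00522) and without PodTOM NTN 2 it was 0.38 (adjusted p = 0.527). With all libraries and no filter on low counts the adjusted p was 0.0244. Whether Lrp1 passed in PodTOM thus depended on the library left out and on the filter.

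Between the genotypes in NTN, Lrp1 was lower in MyD88pko by 2.17 on the log2 scale (SE 0.40; edgeR adjusted p = 0.0695), the member nearest to the threshold in that comparison. Neither group overlapped the other, which also held for Apoe and Nr1h2 in this comparison (edgeR adjusted p = 0.934 and 0.987). The share of all genes without overlap was not computed here, so the lack of overlap is a description only. The call of Lrp1 depended on the setting. DESeq2 gave an adjusted p of 1.09e-04, edgeR with no filter on low counts 1.46e-10 and the fit without PodTOM NTN 3 6.26e-04. The fit of the 2 groups alone gave 0.27, and those without PodTOM NTN 1 or 2 gave 0.408 and 0.618. Endothelial markers were high in the same 2 libraries. The sum over 15 glomerular endothelial markers was 411, 372 and 217 CPM in PodTOM NTN 1 to 3, 204 to 227 CPM in MyD88pko NTN and 140 to 197 CPM in untreated libraries. The sum over 18 macrophage and monocyte markers was 118, 160 and 89.3 CPM in PodTOM NTN, 78.2 to 90.7 CPM in MyD88pko NTN and 85.3 to 117 CPM in untreated libraries, so that this sum stood apart only in PodTOM NTN 2. The median log2 fold change of the list was 2.08 in PodTOM NTN and 0.87 in MyD88pko NTN, beside 0.19 and 0.16 over all genes. Of 17 such markers tested, 3 rose and 1 fell in PodTOM NTN (edgeR), against 15.9% and 9.93% of all genes. None passed between the genotypes in NTN (edgeR), where 0.0613% of all genes did. The sum over 12 mesangial and smooth muscle markers was 623, 542 and 402 CPM in PodTOM NTN, 443 to 609 CPM in MyD88pko NTN and 127 to 207 CPM in untreated libraries. Between genotypes in NTN (MyD88pko against PodTOM) the median log2 fold change was -0.84 for endothelial, -1.01 for mesangial and -0.79 for macrophage markers. It was -0.61 for proximal tubule, -0.30 for neutrophil, 0.09 for podocyte and 0.45 for lymphocyte markers, beside -0.01 over all genes. No marker of these lists passed there (edgeR). Of the 18 macrophage markers, only C1qa was at 0 in all 5 untreated libraries. A group mean of at least 1 CPM was reached by 7 in untreated PodTOM and 14 in PodTOM NTN, and by 8 and 9 in MyD88pko. The part of these cells in the Lrp1 values was not tested.

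**Figure D3:**
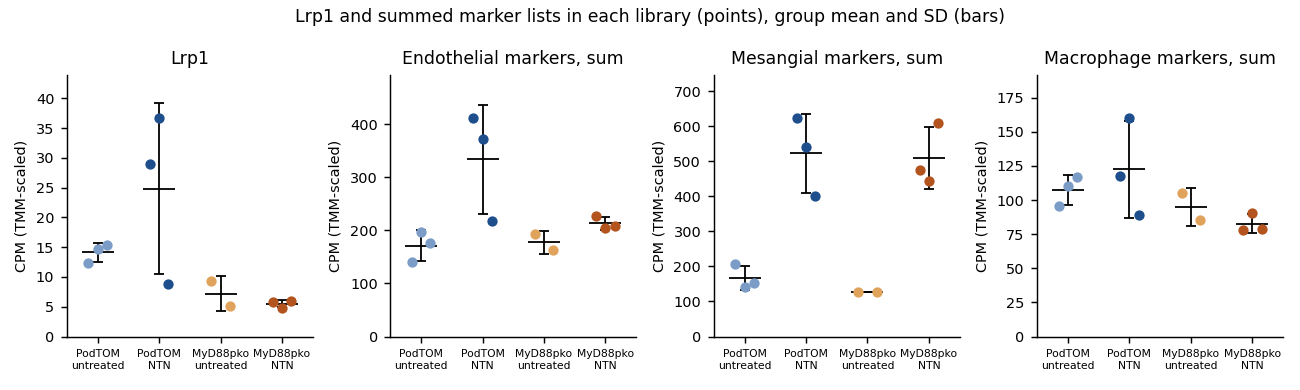
Lrp1 and the summed levels of 3 marker lists in CPM after TMM scaling (linear axes from 0) in each library (points), with the group mean and SD as bars. Lrp1 and the endothelial sum are highest in PodTOM NTN libraries 1 and 2, the latter at 411 and 372 CPM, and the macrophage sum is highest in PodTOM NTN 2, at 160 CPM.

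Apoe, which encodes the apolipoprotein that carries lipid between cells, was low in sorted podocytes. It had 3.40, 1.59 and 1.57 CPM in untreated and 3.37, 3.39 and 1.80 CPM in NTN PodTOM libraries, and 0.20 and 2.94 against 1.09, 1.16 and 1.43 CPM in MyD88pko. The 2 untreated MyD88pko libraries thus differed by more than any other pair of one group, with 3 and 44 counts. No Apoe difference passed in NTN (edgeR adjusted p = 0.712 in PodTOM and 0.784 in MyD88pko). The intervals were wide, from -1.08 to 1.86 and from -2.01 to 1.32 on the log2 scale.

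Soat1 encodes the enzyme of the endoplasmic reticulum that esterifies free cholesterol for storage. It stood at 25.4, 30.8 and 24.0 CPM in untreated and 37.5, 28.2 and 23.9 CPM in NTN PodTOM libraries, and at 17.9 and 26.4 against 26.4, 26.2 and 30.4 CPM in MyD88pko. The log2 fold change was 0.16 (95% interval -0.29 to 0.61; edgeR adjusted p = 0.613) and 0.32 (-0.19 to 0.82; adjusted p = 0.35). With counts rebuilt from TPM, Soat1 rose in MyD88pko (log2 1.2, adjusted p = 0.0205), the only one of 21 alternatives in which it passed. The coding transcript Soat1-207 carried most counts and did not pass in either genotype (edgeR adjusted p = 0.615 and 0.42).

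**Figure D4:**
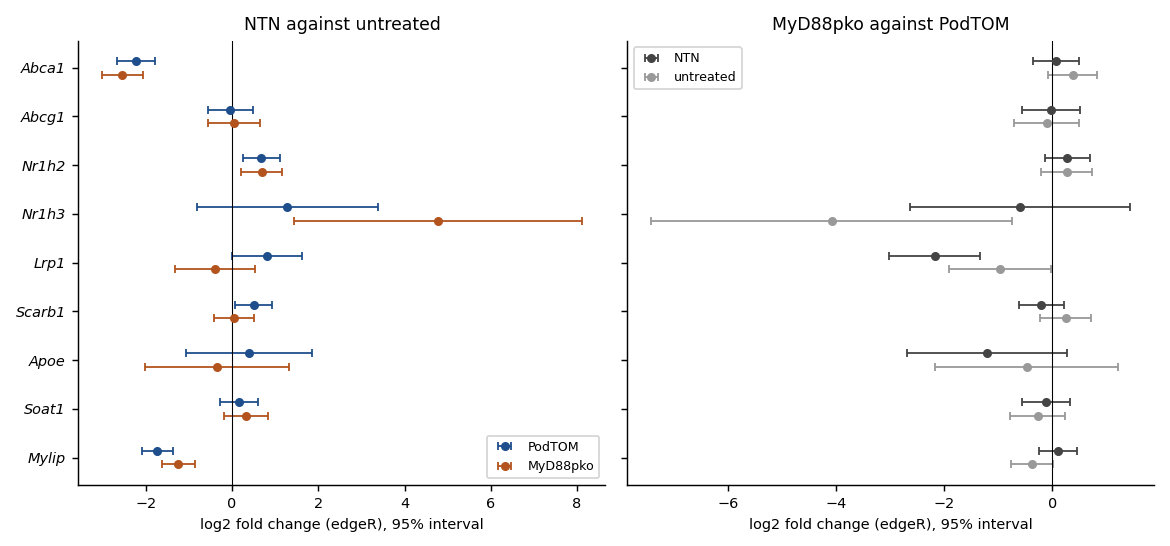
Log2 fold changes from edgeR (points) with 95% intervals (bars) for the 9 genes, in NTN against untreated by genotype and in MyD88pko against PodTOM by condition. Mylip lies apart from 0 in NTN in both genotypes. Abca1, selected on its fall, is shown at -2.23 and -2.54 as a description. Its bars in NTN come from the contrasts on which it was selected, so their distance from 0 is no test. The wide bars of Nr1h3 and Apoe go with their low counts.

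The comparison between genotypes asked whether loss of Myd88 in podocytes changed these genes. None of the 9 passed in NTN, where 0.0613% of all genes did, and none in untreated podocytes, where 0.0189% did (edgeR). At an unadjusted p under 0.05 there was 1 member in NTN (Lrp1) and 2 in untreated libraries (Lrp1 and Nr1h3). With DESeq2, 1 passed in NTN and 0 in untreated podocytes. Abca1, which the rule did not pick on this contrast, differed by 0.06 on the log2 scale in NTN (95% interval -0.36 to 0.49; edgeR adjusted p = 1) and by 0.37 in untreated podocytes (-0.08 to 0.83; adjusted p = 0.948). In untreated libraries 1 of the 2 MyD88pko values, 121.5 CPM, stood above all PodTOM values and the other among them. Mylip was lower in both untreated MyD88pko libraries than in all 3 PodTOM libraries, which did not pass (log2 -0.37 ± 0.18, SE; edgeR adjusted p = 0.903). Lrp1 and Scarb1 did not overlap in untreated libraries either. The share of all genes without overlap was not computed for this comparison, so these are descriptions only.

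Whether the response to NTN itself differed between genotypes was tested for the 8 genes other than Abca1. None passed, none had an unadjusted p under 0.05, and 0.00472% of all genes passed (edgeR), with 0 members passing in DESeq2. Lrp1 had the smallest unadjusted p, 0.0531, at a difference of -1.21 (95% interval -2.43 to 0.02). For Abca1 the fitted difference was -0.31, given with no test. The responses of the 2 genotypes share no library.

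Compared per length, the order of the members changed with NTN. In untreated PodTOM libraries Mylip (44.5 ± 2.0 TPM, SD, n = 3) and Nr1h2 (43.3 ± 6.0) were highest and did not differ beyond their spread, followed by Abcg1 (22.6 ± 1.8), Abca1 (16.6 ± 1.0) and Scarb1 (15.2 ± 0.66). Soat1 (10.8 ± 1.0) came next, and Apoe (6.21 ± 2.8) and Lrp1 (5.72 ± 1.9) overlapped. Nr1h3 was last, at 0.761 ± 0.67 TPM. In PodTOM NTN libraries Nr1h2 (44.4 ± 11 TPM, n = 3) and Abcg1 (34.9 ± 11) led and overlapped, Mylip had dropped to 12.1 ± 1.7, and Abca1, at 2.92 ± 0.90, overlapped with Nr1h3 at 3.01 ± 2.0. In MyD88pko NTN libraries Abca1 was at 3.04 ± 0.89 TPM (n = 3), close to Apoe at 2.33 ± 0.34. The Abcg1 and Scarb1 values in TPM include their retained-intron transcripts.

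Over 9350 genes that averaged 10 CPM or more, the 5 whose log2 CPM followed Abca1 most closely over the 11 libraries were Slc4a10 (Pearson r = 0.98), Eya4 (0.98), Tlr7 (0.98), Cwc27 (0.97) and Itpr3 (0.97). The points share the step between untreated and NTN libraries, so r is a description only. Slc4a10 went from a mean of 45.2 to 12.1 CPM in PodTOM and from 51.3 to 10.9 CPM in MyD88pko, and Tlr7 from 195.1 to 56.0 and from 191.8 to 65.3 CPM. Mylip was 115th in that order (r = 0.93) and Nr1h2 had r = -0.80.

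The other genes of the pathway were taken from 8 lists of sterol handling, with 97 genes that are not members, of which 93 were tested. In PodTOM NTN libraries 14 rose and 14 fell, against 15.9% of all genes higher and 9.93% lower, with a median log2 fold change of -0.03 beside 0.19 over all genes. In MyD88pko 12 rose and 11 fell, against 11.3% and 8.22%, with a median of -0.03. None passed in either genotype comparison or in the difference between responses (edgeR), where 3, 6 and 4 had an unadjusted p under 0.05. Without the 3 libraries with most vomeronasal signal 18 passed in PodTOM in place of 28, and with that signal as a covariate 5 did.

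In the list of SREBP regulators 3 of 7 genes rose in each genotype, none fell and 4 did not pass, beside 15.9% and 11.3% of all genes higher. Those that rose were Srebf2, which encodes the factor itself (log2 0.81 in PodTOM and 1.06 in MyD88pko), and Insig1 (1.09 and 1.23) and Insig2 (0.75 and 1.145), which hold the factor back in the endoplasmic reticulum (edgeR adjusted p from 0.00297 to 0.0152). Insig1 went from 16.1, 16.7 and 20.4 to 29.3, 31.7 and 52.3 CPM in PodTOM and from 21.1 and 17.4 to 41.7, 37.0 and 57.4 CPM in MyD88pko, with no overlap. Such separation held for 42.8% of all genes tested in PodTOM. The median of this list was 0.46 in PodTOM and 0.21 in MyD88pko, beside 0.19 and 0.16 over all genes. Insig1 passed in PodTOM under all 21 alternatives, Srebf2 under 20 and Insig2 under 16, with 0.10 (limma adjusted p = 0.842) on log2(TPM + 1) and an adjusted p of 0.0858 without PodTOM untreated 2. In MyD88pko they passed under 20, 21 and 17.

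Among 20 other lipoprotein and scavenger receptor genes, 4 rose and 2 fell in PodTOM, against 15.9% and 9.93% of all genes. In MyD88pko likewise 4 rose and 2 fell, against 11.3% and 8.22%. Olr1, a scavenger receptor for oxidised lipoprotein (log2 1.42 and 1.33), rose in both genotypes, and the Wnt co-receptor Lrp6 fell (-0.80 and -0.68; edgeR adjusted p from 0.00265 to 0.0358 over these genes). The direction of Olr1 turned with the vomeronasal covariate, to -0.03 in PodTOM and -0.12 in MyD88pko.

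Of 12 LXR target genes that are not members, 2 rose and 2 fell in PodTOM, against 15.9% and 9.93% of all genes. In MyD88pko 1 rose and 1 fell, against 11.3% and 8.22%. Scd2, a fatty acid desaturase, fell from 445.7, 693.0 and 682.2 to 254.0, 286.9 and 248.9 CPM in PodTOM (log2 -1.21, edgeR adjusted p = 1.30e-04) and also in MyD88pko (-0.76, adjusted p = 0.00871). Arl4c, a small GTPase linked to ABCA1 transport, rose (0.92, adjusted p = 0.00216, and 1.29, adjusted p = 8.14e-04). Lpl, which encodes lipoprotein lipase, fell in PodTOM (-0.57, adjusted p = 0.00908) and did not pass in MyD88pko, at -0.33 (adjusted p = 0.141). Pltp, a phospholipid transfer protein, passed in PodTOM (edgeR adjusted p = 0.014) at 0, 0 and 0.3 against 2.3, 2.4 and 1.0 CPM, a low level at which the fitted change is not a measure of size, and stood at -0.12 (adjusted p = 0.945) in MyD88pko.

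Of 12 LXR partners and cofactors that are not members, 1 rose and 3 fell in PodTOM, against 15.9% and 9.93% of all genes. In MyD88pko 4 fell, against 8.22%. The coactivator Ncoa2 fell from 225.9, 201.3 and 191.4 to 109.7, 121.9 and 109.4 CPM in PodTOM (log2 -0.86, edgeR adjusted p = 9.34e-04) and by 1.07 in MyD88pko (adjusted p = 4.99e-04). The acetyltransferase gene Ep300 fell by 0.59 in both (adjusted p = 0.0138 and 0.0258), and the corepressor Ncor1 by 0.45 and 0.61 (0.0352 and 0.0171). The Ncor1 call held in 11 of 21 alternatives in PodTOM and 15 of 21 in MyD88pko, and with the vomeronasal covariate the PodTOM value was -0.05 (adjusted p = 0.915). Pparg, a nuclear receptor of lipid storage, passed in PodTOM (adjusted p = 0.0198) at 0 to 0.6 against 1.8 to 3.2 CPM and not in MyD88pko (adjusted p = 0.169).

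Among 12 other genes of sterol and phospholipid efflux, 2 rose and 2 fell in PodTOM, against 15.9% and 9.93% of all genes. In MyD88pko 2 rose and 1 fell, against 11.3% and 8.22%. Clu, which encodes clusterin or apolipoprotein J, rose from 2.1, 2.3 and 9.4 to 39.99, 29.0 and 29.8 CPM in PodTOM (log2 2.83, edgeR adjusted p = 0.00158) and from 1.3 and 1.7 to 28.0, 19.5 and 41.8 CPM in MyD88pko (4.32, adjusted p = 9.26e-04). The transporters Abca5 (-0.65 and -0.62) and Abca3 (-0.48 and -0.12) fell in PodTOM (adjusted p = 0.00498 and 0.0321), and Abca5 also in MyD88pko (0.0152). Of the 16 genes of endolysosomal and intracellular transport, Npc2, which hands cholesterol out of lysosomes, rose in both genotypes (0.80 and 0.71, adjusted p = 0.00184 and 0.011), while Osbpl8, an oxysterol-binding protein family gene, fell (-1.13 and -0.94, adjusted p = 1.59e-04 and 0.00184). Osbp and Osbpl9 fell in PodTOM (-0.51 and -0.46, adjusted p = 0.0297 and 0.0303) and did not pass in MyD88pko (-0.05 and -0.31).

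Of 9 other genes of esterification and lipid droplets, 1 rose and 1 fell in each genotype. Of all genes, 15.9% rose and 9.93% fell in PodTOM, and 11.3% and 8.22% in MyD88pko. Plin2, a lipid droplet coat gene, rose from 3.1, 7.7 and 9.99 to 12.4, 10.8 and 19.1 CPM in PodTOM (log2 1.02, edgeR adjusted p = 0.0465) and in MyD88pko (1.56, adjusted p = 0.0166), and Soat2, the esterifying enzyme of liver and gut, fell from 9.6, 12.4 and 13.8 to 4.8, 6.0 and 8.8 CPM (-0.87, adjusted p = 0.0335, and -1.38 in MyD88pko, adjusted p = 0.00603). In PodTOM the Plin2 call held in 6 of 21 alternatives, with log2 values from 0.64 to 1.95 (lowest without PodTOM untreated 1) and adjusted p up to 0.161, and that of Soat2 in 13 of 21. In MyD88pko they held in 17 and 18 of 21. Of 8 oxysterol enzyme genes tested, Cyp7a1, the hepatic enzyme of bile acid synthesis, passed in PodTOM (adjusted p = 0.00354) at 0.2 to 0.6 against 2.2 to 7.0 CPM, and was 0.9 and 1.2 against 0.8 to 4.5 CPM in MyD88pko (adjusted p = 0.196). In MyD88pko 1 oxysterol enzyme gene fell, Sult2b1, a sulfotransferase of sterols named after its values were seen, from 9.69 and 8.41 to 1.41, 2.20 and 1.72 CPM (log2 -2.34, adjusted p = 0.00199). The levels of Cyp7a1 in NTN were highest in the libraries with most vomeronasal signal, at 7.0, 4.5 and 3.3 CPM.

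**Figure D5:**
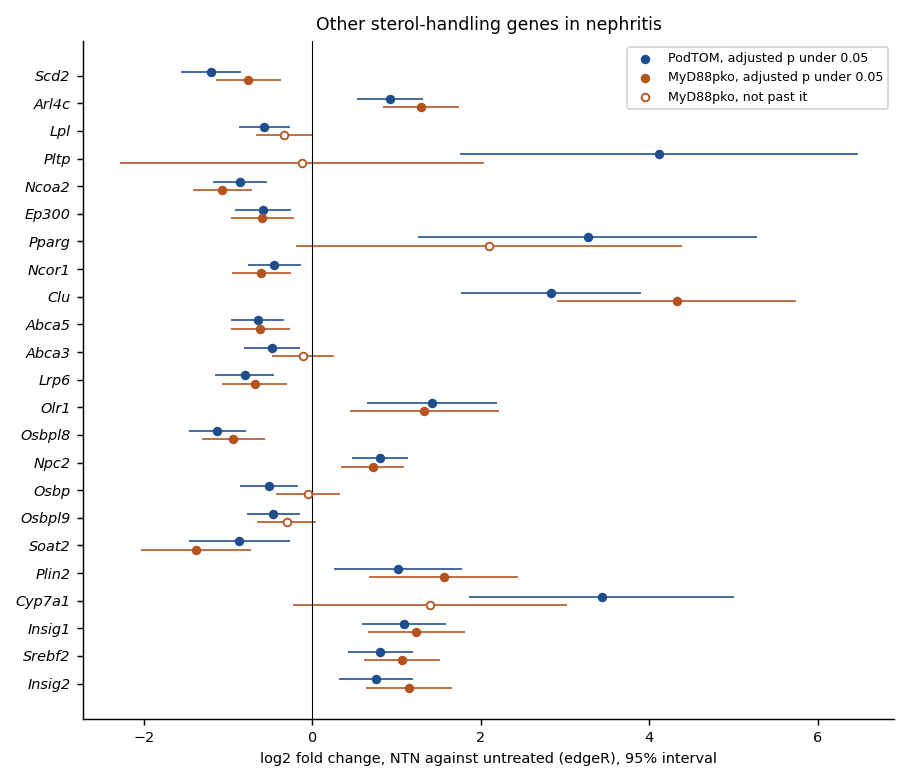
Log2 fold change in NTN against untreated from edgeR (points) with 95% intervals (bars) for the sterol-handling genes named in the text, in PodTOM and MyD88pko; filled points passed an adjusted p of 0.05. Clu, Insig1, Insig2 and Srebf2 lie to the right in both genotypes, with Clu at 2.83 and 4.32, and Scd2, Osbpl8 and Ncoa2 to the left.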

How the data were processed

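RNA of sorted mTomato-positive podocytes was pre-amplified (Ovation V2, no strand information or molecular identifiers) and sequenced by the authors, who deposited estimated counts and effective lengths per transcript; submitters' notes name FastQC, cutadapt, SAMtools, kallisto, sleuth and the builds mm10 and GRCm38. Of 109282 transcripts, 107987 matched GENCODE M21; the rest (0.467% to 0.638% of counts) were left out. Rounded sums per gene gave 34547 genes. edgeR 4.0.16 (R 4.3.3; filterByExpr with a minimum count of 10, TMM, robust quasi-likelihood F test, 1 coefficient per group over all 11 libraries) gave log2 fold changes, and Benjamini-Hochberg adjusted p under 0.05 over all genes tested was the call. Transcripts were fitted likewise, without the uncertainty of assigning reads to them. TPM were recomputed from counts and effective lengths. Alternatives used DESeq2 1.42.0, limma 3.58.1 on log2(TPM + 1), other factors, filters and sets of libraries.

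The members and gene lists were chosen with earlier results of these data known. Named were all members; from each sterol list up to 4 other genes with the smallest adjusted p under 0.05 in PodTOM NTN, and any that passed between genotypes; member transcripts with a group mean of at least 5 CPM; and the 5 genes most like Abca1. Some genes that this rule chose are not reported here. Transcript and list-gene alternatives and the looser DR4 search were added after the data were seen. Promoters came from RefSeq (GRCm38.p6), matched by symbol for 7 of 9 members. Neutrophil, lymphocyte and proximal tubule marker sums were 3.94 to 8.80, 14.1 to 54.3 and 34.8 to 136 CPM over all libraries. Intervals on counts cover counting error only.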

Additional observations from a re-analysis of the deposited data

How the results depend on the processing

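Mylip in NTN kept its direction and its call under every alternative run. The fitted value of Abca1 in NTN also kept its sign, which for a gene selected on its fall is a description only. Members called in PodTOM NTN went from 2 to 1 on log2(TPM + 1), without the 3 libraries with most vomeronasal signal and with that signal as a covariate, and ranged from 1 to 3 with 1 library left out. In MyD88pko NTN they went from 3 to 1 under the same 3 settings and ranged from 1 to 3. With coding transcripts only, Abcg1 fell and passed as well in both genotypes (edgeR adjusted p = 0.00192 in PodTOM and 0.0221 in MyD88pko). Nr1h2 then passed in PodTOM (edgeR adjusted p = 0.0172) and not in MyD88pko (0.0861). With counts rebuilt from TPM, Abcg1 rose and passed in PodTOM, Soat1 passed in MyD88pko, and Nr1h2 passed in neither. Between genotypes in NTN, 1 passed in place of 0 with DESeq2 and with no filter on low counts, and 0 to 1 with 1 library left out. Of the other sterol genes, 18 passed in PodTOM NTN without the 3 libraries and 5 with the covariate, in place of 28. Member transcripts called in PodTOM NTN went from 3 to 1 without the 3 libraries and 0 with the covariate, with a range of 1 to 4 when 1 library was left out, and in MyD88pko NTN from 1 to 0, 0 and, with only the groups compared, 2, with a range of 0 to 3. The transcript and list-gene alternatives were chosen after seeing the data.

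Over all genes, calls in PodTOM NTN went from 5487 to 2686 without the 3 libraries, 768 with the covariate and 3269 without PodTOM NTN 1. In MyD88pko NTN they went from 4133 to 1120 with the covariate, 2175 without MyD88pko NTN 1 and 2460 without MyD88pko NTN 2. Fits that left 1 library in either MyD88pko group are left out for this genotype. Without receptor and satellite-like genes, calls were 5106 in PodTOM NTN and 3998 in MyD88pko NTN. Between genotypes in NTN, 131 genes passed with DESeq2 and 177 with no filter, in place of 13. The all-gene median of 0.19 in PodTOM and 0.16 in MyD88pko became -0.16 and -0.05 on log2(TPM + 1), 0.41 and 0.49 with DESeq2 and 0.51 and 0.63 with no filter, so changes of members should be read against these medians.

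Directions that turned are given here, and the cause was not tested. Among them Olr1 had passed in both genotypes, and Lrp1 in PodTOM NTN, at 0.81, and Abcg1-202 in MyD88pko NTN, at 1.49, had not. On log2(TPM + 1), PodTOM NTN log2 differences were 0.56 for Abcg1, -0.06 for Lrp1, -0.43 for Apoe and -0.16 for Soat1, that of Scarb1 in MyD88pko NTN was -0.05, the genotype differences in NTN were 0.04 for Abcg1 and 0.36 for Soat1 and that of Abcg1 in untreated podocytes 0.05, and the differences between responses were -0.02 for Abcg1 and 0.31 for Apoe. With counts rebuilt from TPM, they were 0.85 for Abcg1 and -0.37 for Apoe in PodTOM NTN, -0.14 for Abca1, 0.12 for Soat1 and -0.10 for Mylip between genotypes in NTN, 0.05 for Abcg1 in untreated podocytes, and -0.12 for Abcg1 and -0.08 for Nr1h2 between responses. Without receptor and satellite-like genes, Abcg1 was at 0.02 in PodTOM NTN and 0.05 between genotypes in NTN, where DESeq2 and RLE factors both gave 0.03. With coding transcripts only, Abcg1 was at -1.07 in MyD88pko NTN and 0.17 between genotypes in NTN, and Nr1h2 at -0.15 between responses. Without the 3 libraries, Soat1 was at -0.04 in PodTOM NTN, Abcg1 at -0.62 and Scarb1 at -0.31 in MyD88pko NTN, Abca1 at -0.12 and Soat1 at 0.25 between genotypes in NTN, and Abcg1 at -0.37 between responses. With the covariate, Scarb1 was at -0.10, Apoe at -0.28, Soat1 at -0.04 and Olr1 at -0.03 in PodTOM NTN, Abcg1 at -0.97, Scarb1 at -0.56, Olr1 at -0.12 and Abcg1-202 at -0.11 in MyD88pko NTN, and Nr1h2 at -0.00 between responses.

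With 1 library left out, log2 differences spanned 0 for Abcg1 (-0.22 to 0.07) and Soat1 (-0.02 to 0.29) in PodTOM NTN, for Abcg1 (-0.14 to 0.30), Lrp1 (-0.76 to 0.10), Scarb1 (-0.05 to 0.21) and Apoe (-1.25 to 2.62) in MyD88pko NTN, for Abca1 (-0.04 to 0.29), Abcg1 (-0.21 to 0.27) and Soat1 (-0.25 to 0.16) between genotypes in NTN, for Abcg1 (-0.31 to 0.07) and Apoe (-3.44 to 0.43) in untreated podocytes, and between responses for Abca1 (-0.60 to 0.05), Abcg1 (-0.11 to 0.38), Nr1h2 (-0.14 to 0.16), Apoe (-1.64 to 2.23) and Soat1 (-0.09 to 0.47). Leaving out an untreated MyD88pko library left 1, whose spread was taken from the other groups. No paired analysis was possible because the labels give no replicate numbers shared between groups.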
